A study of Mus musculus with 24 samples.

Results

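The 150 probes described here were those with the lowest ischemic over non-ischemic ratios in mouse hearts after coronary occlusion and reperfusion. They were chosen by measured values, in steps. Of 16463 mouse probes on the array, 16451 had 1 spot. These were ranked by mean background-subtracted intensity of the ischemic control RNA over 24 arrays. The 7700 probes after the 300 brightest and up to rank 8000 were kept as the window, a cut by rank that does not ensure measurable signal. In the authors' deposited table, 1376 of those 7700 (17.9%) had a ratio of the ischemic over the non-ischemic region below 0 in all 3 replicate numbers, and the 150 with the lowest mean became the members. The values that chose them are given as a description with no test.

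All hearts came from anesthetized C57BL/6 mice whose coronary artery was closed for 40 min and then reopened for 60 min. In 3 groups the ischemic region was taken from hearts that also had 3 conditioning cycles, each of 1 min without and 1 min with flow. The cycles were given 10 min ahead of the long occlusion in PreC, at 1 min of reperfusion in PostC and at 30 min of reperfusion in Post30. Hearts with no conditioning gave both their ischemic region (IR) and their non-ischemic region (NonIschemic). IR RNA was 1 channel of every 2-colour array. PreC, PostC, Post30 or NonIschemic RNA was the other, on 6 arrays each, as 3 replicate numbers labelled in both dye orientations. The 2 arrays of a number were averaged into 1 extract pair, which gave 12 pairs. The non-ischemic region of conditioned hearts was not analysed here. The labels do not say whether a number stands for 1 heart, a pool or repeated work, so p-values measure the spread between these extracts, which may be technical. Where the number enters a fit as a fixed block, the spread its pairs share is left out of that measure.

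When a coronary artery is closed, the muscle it feeds loses oxygen and substrate, while muscle fed by other arteries stays perfused. Reopening the artery restores flow and adds injury of its own, through calcium overload, reactive oxygen species and opening of the mitochondrial permeability transition pore. Short cycles of occlusion before the long one (preconditioning), or at the start of reperfusion (postconditioning), are known from animal work to limit infarct size, and delaying postconditioning is known to weaken that protection. RNA that is lower in the ischemic than in the non-ischemic region of the same kind of heart can therefore be read for its level after each protocol. In tissue RNA, fewer cells of a type and less RNA per cell cannot be told apart.

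The deposited files give probe IDs without genes, and 0 of 16463 IDs were found in the gene table at hand. The members are therefore described as probes, without function, sequence or cell type, and the cell type markers could not be checked. The direction of each ratio follows the channel labels. The Cy3-labelled channel had the higher background on 24 of 24 arrays, and of 4 control probes 4RC lay above 0 on 24 of 24 arrays and 3RC on 0 of 24, in both dye orientations, while 2RC lay above 0 on 20 and 1RC on 5. The direction is thus likely and not settled by a stated key. If the channels were named the other way round, every sign below would turn together.

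In the authors' deposited table, the members' mean log2 ratio of the ischemic over the non-ischemic region ran from -0.70 to -0.24, with a median of -0.29. The last member chosen had -0.2405 and the first probe left out had -0.2404, so the end of the list is not a natural break. The authors' values ran from -1.57 to -0.0071 in number 1 (median -0.217), from -1.38 to -0.0113 in number 2 (median -0.422) and from -1.13 to -0.0096 in number 3 (median -0.206). Window medians in the authors' table were 0.0147, 0.0090 and 0.0047. Number 2 gave the lowest of the 3 values for 104 members, number 1 for 28 and number 3 for 18. Most members were therefore furthest below 0 in number 2. The member with the lowest authors' mean had -0.16, -1.38 and -0.57 in numbers 1, 2 and 3. Its size, too, rested mainly on number 2.

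For all further values, intensities of the array files were background-corrected and normalized within each array, and each ratio is the log2 of the named group over IR. For NonIschemic this ratio runs opposite to the authors' ratio above, so a positive value again means lower in the ischemic IR region. On these values the members' median NonIschemic over IR ratio was 0.206 in number 1, 0.369 in number 2 and 0.158 in number 3. The ratio was above 0 for 142 of 149, 143 of 147 and 141 of 150 members with a value. In all 3 numbers it was above 0 for 131 of 147 members (89.1%), and below 0 in all 3 for 0. These values came from the same NonIschemic arrays that chose the members, processed apart from the authors' table. The kept sign was therefore largely set by the choice, though not every member kept it. When the members were picked by the same steps on these values, 109 of the 150 were shared.

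The members were not confined to faint spots. Their median IR intensity above background was 4.81 scanner units, with the middle 50% between 2.32 and 10.8 and a range from 0.906 to 67.2. The window had a median of 3.73, with the middle 50% between 1.82 and 8.95. The IR channel exceeded the 95th percentile of empty spots on all 24 arrays for 94 members (62.7%), against 57.0% of the window, and the conditioned channel did so on all 18 conditioning arrays for 94 members (62.7%), against 49.7% of the window. Only 3 members had a spot with a quality mark on any array. Marked spots were kept in the authors' ratios that chose the members, in which these 3 stood at ranks 5, 8 and 9. Of the 3, 1 had PreC values but none in PostC and Post30, so it had no value for the protocols combined. The members' local background relative to that of the window was 0.956 to 1.07 in channel 1 and 0.935 to 1.07 in channel 2 over the 24 arrays, with medians of 1.01 in both.

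Spot numbers fell into 12 runs of 1520. Each run held 7.75% to 8.95% of the window and between 5 and 22 members, with 22 in the first run and 5 in the eleventh. When each run was divided into 4 stretches of 380, 33.3%, 12%, 28% and 26.7% of members fell into stretches 1 to 4, against 32.2%, 17%, 33.1% and 17.8% of the window. Stretch 4 thus held a larger share of the members than of the window. Median ratios of members in stretches 1 to 4 were 0.0651, 0.0465, 0.0440 and 0.0621 for PreC over IR, 0.0930, 0.110, 0.0984 and 0.0870 for PostC over IR, and 0.0688, 0.0907, 0.0764 and 0.0469 for Post30 over IR. All 12 of these medians were above 0. The part of array position in the choice of members was not tested.

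In conditioned hearts the members' ratios over IR were mostly above 0, by less than in NonIschemic RNA. NonIschemic over IR was the ratio that chose the members, so the choice itself widened its distance from the conditioned groups. PreC over IR had a member median of 0.0718, 0.0827 and 0.0230 in numbers 1 to 3, with 99 of 150, 114 of 149 and 85 of 148 members above 0. PostC over IR had 0.0377, 0.195 and 0.0628, with 90 of 149, 132 of 149 and 95 of 148 above 0. Post30 over IR had 0.0554, 0.122 and 0.0230, with 101 of 149, 121 of 148 and 82 of 149 above 0. The member medians were above 0 in all 9 conditioning pairs, and number 2 was the highest of its group in each protocol, as it was in NonIschemic. Between 46.8% and 50.3% of the window lay above 0 in each of the 12 pairs, and window medians were between -0.0107 and 0.0010. Averaged over numbers, the member median in PreC was 0.0591 ± 0.0318, that in PostC 0.0984 ± 0.0844, that in Post30 0.0668 ± 0.0505 and that in NonIschemic 0.244 ± 0.110 (SD, n = 3 each). The spread between numbers in PostC and Post30 was close to the size of the mean.

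Per member, the spread was wide against these shifts. The median SD of a member over the 3 numbers was 0.110 in PreC, 0.141 in PostC, 0.119 in Post30 and 0.145 in NonIschemic. All 3 numbers were above 0 for 45 of 148 members in PreC (30.4%, against 14% of the window), 57 of 148 in PostC (38.5%, against 19%) and 51 of 148 in Post30 (34.5%, against 14.5%). All 3 were below 0 for 7 members in PreC (4.73%, against 17% of the window), 5 in PostC (3.38%, against 21.8%) and 7 in Post30 (4.73%, against 17.6%). The other members, the larger number in each protocol, had mixed signs.

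Tested against 0 with limma, with adjustment over all mouse probes, PreC over IR passed an adjusted p of 0.05 for 0 of 150 members, where 0% of all mouse probes did. At an unadjusted p under 0.05, 21 members were higher (14%, against 3.03% of all mouse probes) and 3 were lower, against a background of 3.81%. Of those 3, 1 had a value in 1 PreC pair only, through marked spots. The median fitted ratio of the members was 0.0559, with the middle 50% between 0.0125 and 0.131, against a window median of -0.0031. The 149 members with at least 2 PreC pairs ranged from -0.27 to 0.41. The ratio was above 0 for 117 of 150 (78.0%). With the replicate number as a block, 1 member passed the adjusted threshold (0.243% of all mouse probes did), and it was the lower member with a single PreC pair. Against IR, this fixed block takes the spread shared by pairs of a number out of the error. Blocked p-values against IR, here and below, therefore do not measure the full spread between extracts.

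PostC over IR passed the adjusted threshold for 0 of 149 members, where 0% of all mouse probes did, and the lowest adjusted p of a member was 0.0611. At an unadjusted p under 0.05, 38 members were higher (25.5%, against 5.83% of all mouse probes) and 2 were lower, against a background of 7.73%. The member median was 0.0959, with the middle 50% between 0.0354 and 0.154, and 123 of 149 were above 0 (82.6%). The range was -0.415 to 0.597, and the highest member had values in 2 PostC pairs only, through marked spots. With the replicate number as a block, 13 members passed the adjusted threshold, all higher (8.72%, against 2.31% of all mouse probes). Without NonIschemic number 2, which enters only through the shared estimate of the spread, 11 did (7.38%, against 1.45%).

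Post30 over IR passed the adjusted threshold for 0 of 149 members, where 0.0729% of all mouse probes did. At an unadjusted p under 0.05, 23 members were higher (15.4%, against 3.21% of all mouse probes) and 4 were lower, against a background of 3.85%. The member median was 0.0684, with the middle 50% between -0.0090 and 0.125 and a range from -0.588 to 0.412, and 108 of 149 were above 0 (72.5%). With the replicate number as a block, 5 members passed the adjusted threshold, 2 higher and 3 lower (3.36%, against 0.632% of all mouse probes).

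In the window, from which members came, unadjusted shares were 3.49% higher and 4.70% lower in PreC. They were 8.61% and 12.6% in PostC, and 4.23% and 5.91% in Post30. Blocked adjusted shares of the window were 0.494%, 4.40% and 1.29%. The members' shares of higher calls at an unadjusted p stand above both backgrounds, but the choice of members used the same IR RNA. A low chance value of IR in a number raises NonIschemic, PreC, PostC and Post30 over IR alike, so the 3 protocols' excess over the background and the choice cannot be told apart on these counts. The scaling also set the sign: with arrays centred on their median instead of loess, PreC had a member median of -0.0578 against -0.109 in the window, PostC had -0.0154 against -0.0987, and Post30 had -0.0863 against -0.135. Under that scaling the unadjusted calls split into 1 higher and 8 lower in PreC (6% of members, against 13.6% of all mouse probes), 2 and 9 in PostC (7.38%, against 17%), and 2 and 15 in Post30 (11.4%, against 19.1%), so members were called at a lower share than all probes. Relative to the window the members were higher under both scalings. By dye orientation, the member median per array was 0.0325 to 0.0912 with PreC in Cy5 and 0.0307 to 0.0844 with PreC in Cy3, 0.0264 to 0.186 and 0.0448 to 0.196 for PostC, and 0.0423 to 0.115 and -0.0042 to 0.137 for Post30.

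To take the shared IR RNA out of the choice, 150 probes were picked by the same steps on NonIschemic arrays of 2 numbers, and read in the number left out. This separates the choice from the reading only if each number had IR and NonIschemic RNA of its own, which the labels do not state. The lists shared 90, 64 and 113 probes with the members when number 1, 2 or 3 was left out. Leaving out number 2 changed the list most. The label held in the left-out numbers: NonIschemic over IR had a median of 0.0816, 0.0775 and 0.121, with 107 of 149, 104 of 147 and 125 of 150 probes above 0 (71.8%, 70.7% and 83.3%). The probes were thus again lower in the ischemic IR region in numbers that had not chosen them, at a mean of 0.0934 ± 0.0240 (SD, n = 3), against 0.256 in the numbers that chose them. The picking numbers gave 2.75 times the left-out value.

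On average over the lists, the conditioned groups were closer to 0 in the left-out numbers than in the picking numbers, but not with number 2 left out. PreC over IR had left-out medians of 0.0136, 0.0617 and 0.0073, with 54.7%, 69.8% and 51.4% of probes above 0. PostC over IR had 0.0421, 0.0561 and 0.0629, with 61.5%, 61.1% and 64.9% above 0. Post30 over IR had 0.0082, 0.0307 and 0.0244, with 52.3%, 59.5% and 56.0% above 0. All 9 left-out medians were above 0 and above their window medians, which lay between -0.0107 and 0.0010. Over the left-out numbers PreC averaged 0.0276 ± 0.0297, PostC 0.0537 ± 0.0106 and Post30 0.0211 ± 0.0116 (SD, n = 3 each, from lists that overlap). In the numbers used for picking the same lists averaged 0.0594, 0.0834 and 0.0606, which is 2.16, 1.55 and 2.87 times as much. With number 2 left out the order was reversed. The picking numbers then gave 0.0608 in PreC, -0.0016 in PostC and 0.0170 in Post30, each below the left-out median. With arrays centred on the median, these means turned to -0.0764, -0.0457 and -0.109, against window values of -0.109, -0.102 and -0.134, so the probes stayed above the window in each protocol. Under loess, PostC alone had all 3 medians above 0.04, but its difference from the other protocols was not tested on these lists.

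A difference that does not contain the IR level was also read in the left-out number: the conditioned ischemic region minus the non-ischemic region of the same number. If 1 IR extract served all arrays of a number, which the labels do not state, its level stands under both ratios and drops out, apart from the error of the arrays. PreC minus NonIschemic had medians of -0.0704, -0.0453 and -0.123 with number 1, 2 or 3 left out, and 67.1%, 60.5% and 73.0% of probes were below 0. PostC minus NonIschemic had -0.0512, -0.0568 and -0.0393, with 59.2%, 63.3% and 57.4% below 0. Post30 minus NonIschemic had -0.0785, -0.0653 and -0.0759, with 70.3%, 65.3% and 67.3% below 0. In the window between 48.1% and 53.6% of probes were below 0 in these 9 differences. Probes picked as low in the IR region thus had lower medians in the conditioned ischemic region than in the non-ischemic region in all 9 readings, in numbers that had not picked them. The protocols of a number shared 1 NonIschemic pair, so the 9 readings rest on 3 such pairs and on lists that overlap. If the numbers were repeated work on the same NonIschemic RNA, the choice itself would lower these differences.

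The levels of the members in single channels showed where the numbers differed. In the conditioned channels the member median lay above the window median by 0.219 to 0.292 in number 1, 0.283 to 0.502 in number 2 and 0.396 to 0.512 in number 3 (log2 intensity, 6 arrays each). In the IR channel the same difference was 0.164 to 0.235 in number 1, 0.172 to 0.287 in number 2 and 0.391 to 0.440 in number 3, over 8 arrays each. The IR value of number 3 was thus higher than that of numbers 1 and 2 on every array, and number 3 was also high in the conditioned channels. In the NonIschemic channel it was 0.458 to 0.50, 0.602 to 0.611 and 0.572 to 0.612, over 2 arrays each. In each number the conditioned and IR channels overlapped, with the higher median in the conditioned channels. In every number the NonIschemic channel lay above all IR arrays of that number. Members were chosen for IR below NonIschemic in each number, so that order was set by the choice. A low chance value of IR would also place the conditioned channels above IR.

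Differences between protocols had small medians over the members, and no member passed the adjusted threshold in limma. If IR RNA was shared within a number, its level drops out of these contrasts. PostC against PreC passed the adjusted threshold for 0 members, where 0% of all mouse probes did, and 13 members passed an unadjusted p of 0.05 (8.72%, against 8.19% of all mouse probes), 11 of them higher in PostC. With the replicate number as a block 29 members passed the unadjusted one (19.5%, against 11%), 21 of them higher. Its member median was 0.0201. Post30 against PreC passed the adjusted threshold for 0 members, where again 0% of all mouse probes did, and 11 passed the unadjusted one (7.38%, against 4.67%), 4 higher and 7 lower in Post30. With the block 20 passed (13.4%, against 7.1%), 8 higher and 12 lower. Its member median was 0.0049. Post30 against PostC passed the adjusted threshold for 0 members, where 0.00608% of all mouse probes did, and 10 passed the unadjusted one (6.71%, against 4.65%), 1 higher and 9 lower in Post30. With the block 15 passed (10.1%, against 6.63%), 1 higher and 14 lower. Its member median was -0.0400, and 56 of 149 members were above 0 (37.6%, against 51.5% of the window). That median moved to -0.0034 without PostC number 2, so it rested mainly on that extract. In the window, from which members came, unadjusted shares were 11.7% for PostC against PreC, 5.98% for Post30 against PreC and 6.07% for Post30 against PostC. With the block they were 16.3%, 9.98% and 9.30%. The members' unblocked share for PostC against PreC was thus below that of the window. The 95% interval of a single member's value reached 0.229 to either side between protocols and 0.162 against IR, as the median over members.

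Over the 3 protocols combined, 5 of 149 members passed the adjusted threshold in limma, and all 5 rose over IR (3.36%, against 0.972% of all mouse probes and 1.82% of the window). The choice of members used the same IR RNA, so a low chance value of IR would raise these ratios too. The fit that gave 5 took the 9 conditioning pairs as independent, though same-numbered pairs deviated together (r 0.215 to 0.396 between protocols). With the correlation between pairs of a number estimated at 0.0782 (a random block), 2 of these 5 passed (1.34%, against 0.261%). At an unadjusted p under 0.05, 61 members were higher (40.9%, against 6.86% of all mouse probes and 9.99% of the window). Another 3 were lower (2.01%, against 8.29% and 13.1%). The member median was 0.0758 and the window median -0.0040. With numbers as a fixed block, which takes the spread shared within a number out of the error, 31 members passed. Of these, 30 were higher and 1 lower (20.8%, against 3.97% of all mouse probes and 7.45% of the window). Without PreC number 2 or without PostC number 2 only 1 member passed, where 0.17% and 0.201% of all mouse probes did, and without NonIschemic number 2 there were 13 (8.72%, against 1.94%). With arrays centred on the median 12 passed, all of them lower (8.05%, against 22% of all mouse probes), and the unadjusted split was 2 higher and 24 lower (17.4%, against 39.1%).

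The dimmest 50 members, by IR intensity, had median ratios over IR of 0.0303 in PreC, 0.0758 in PostC and 0.0372 in Post30. The middle 50 had 0.0671, 0.107 and 0.0667, and the brightest 50 had 0.0573, 0.108 and 0.0913. The dimmest members were the lowest in each protocol, and window probes split by intensity in the same way had medians between -0.0102 and 0.0029. By rank in the authors' ratio, the 50 lowest members had 0.0621, 0.0930 and 0.0518 in PreC, PostC and Post30, the next 50 had 0.0645, 0.102 and 0.0680, and the last 50 had 0.0353, 0.0827 and 0.0722. In none of the protocols were the 50 members with the lowest authors' ratios the highest over IR.

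The highest member over the 3 protocols was Mm::M200000541. Its log2 ratios over IR in numbers 1, 2 and 3 were 0.37, 0.30 and 0.15 in PreC, 0.38, 0.49 and 0.25 in PostC, 0.08, 0.45 and 0.37 in Post30, and 0.21, 0.43 and 0.28 in NonIschemic. All 9 conditioning pairs were above 0, and the conditioned and NonIschemic ranges overlapped. PreC averaged 0.27 ± 0.11, PostC 0.37 ± 0.12, Post30 0.30 ± 0.20 and NonIschemic 0.31 ± 0.11 (SD, n = 3 each). It rose over IR across the 3 protocols by 0.32 (SE 0.042), with an adjusted p of 0.0104 in limma. Its authors' ratios of the ischemic over the non-ischemic region were -0.24, -0.50 and -0.06, which put it at rank 96 of the members. Members were chosen for low IR on the same IR RNA, and this probe was named for its height in the tested contrast. A low chance value of IR would raise its ratio too, so the p-value is given as a description.

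The next highest of the members above 0 in all 9 pairs was Mm::M200008836. Its log2 ratios over IR in numbers 1, 2 and 3 were 0.18, 0.26 and 0.40 in PreC, 0.37, 0.36 and 0.20 in PostC, 0.09, 0.35 and 0.22 in Post30, and 0.04, 0.50 and 0.16 in NonIschemic. All 9 conditioned values were above 0 and lay within the NonIschemic range. PreC averaged 0.28 ± 0.11, PostC 0.31 ± 0.09, Post30 0.22 ± 0.13 and NonIschemic 0.23 ± 0.24 (SD, n = 3 each). It rose over IR across the protocols by 0.27 (SE 0.045), with an adjusted p of 0.0176 in limma, under the same limit of choice as Mm::M200000541. It did not pass without replicate number 3 (adjusted p = 0.113) or number 1 (0.0706), nor without PreC, PostC or Post30 number 2 alone (0.0537, 0.0562 and 0.0593). Both probes missed the adjusted threshold with arrays centred on the median, at 0.0959 for Mm::M200000541 and 0.305 for Mm::M200008836.

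The other 3 members that rose had fitted ratios over all protocols of 0.16, 0.16 and 0.20, with adjusted p-values of 0.0452, 0.0448 and 0.0452 in limma, and none of these 3 passed with the random block. Their PreC ratios were 0.07, 0.04 and 0.04, their PostC ratios 0.23, 0.25 and 0.33, and their Post30 ratios 0.18, 0.20 and 0.23. For these 3 the PreC value was the lowest of the protocols, and 9, 8 and 8 of the 9 conditioning pairs were above 0.

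No member was below 0 in all 9 conditioning pairs, and 2 members were below 0 in 7 of them, the most for any member. Mm::M200016394 had log2 ratios over IR in numbers 1, 2 and 3 of -0.22, -0.07 and 0.17 in PreC, -0.32, -0.11 and -0.82 in PostC, -0.96, 0.04 and -0.62 in Post30, and 0.01, 0.41 and 0.30 in NonIschemic. All 3 PostC values lay below all 3 NonIschemic values, while number 2 stood nearest to 0 in each protocol. PreC averaged -0.04 ± 0.19, PostC -0.42 ± 0.37, Post30 -0.51 ± 0.51 and NonIschemic 0.24 ± 0.21 (SD, n = 3 each). Over the protocols its ratio was -0.32 (SE 0.089, adjusted p = 0.0957 in limma), which did not pass. It passed with the replicate number as a block, at an adjusted p of 0.0181, and without replicate number 2 (0.0188) or Post30 number 2 alone (0.0396). With arrays centred on the median it was -0.49 (adjusted p = 0.00806).

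Mm::M200000359 had log2 ratios over IR in numbers 1, 2 and 3 of -0.10, -0.12 and -0.09 in PreC, 0.01, -0.02 and -0.09 in PostC, -0.01, 0.07 and -0.13 in Post30, and 0.64, -0.01 and 0.17 in NonIschemic. Its NonIschemic ratio came mainly from number 1, and its conditioned values stayed close to IR. Over the protocols its ratio was -0.05 (SE 0.050, adjusted p = 0.686 in limma). With arrays centred on the median, which lowered the window as a whole, it was -0.19 and passed (adjusted p = 0.0353). PreC averaged -0.10 ± 0.015, PostC -0.03 ± 0.05, Post30 -0.02 ± 0.10 and NonIschemic 0.27 ± 0.33 (SD, n = 3 each).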

How the data were processed

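Per the file headers, the deposited array files hold foreground and local background intensity of 2 channels for 17664 spots (no source used here names the image software). The authors' deposited log2 ratio table has unknown normalization and software. Its scale and direction were read against the arrays (r 0.340 to 0.568 after its sign was turned), and its column medians were -0.013 to 0.0083. Amplified RNA was labelled, per the labels' protocols. Control and empty spots (1009) and 2 to 25 marked spots per array were left out of the normalized values. The authors' ratios that chose the members were used with marked spots kept. A pair lacking 1 orientation through a mark had no value for that probe.

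Background was corrected with normexp and arrays normalized by global loess in limma 3.58.1 (R 4.3.3). The usual offset of 50 was scaled to 1.03, since intensities reached only 1356. Array medians were 1.26 to 4.25, and the number of arrays limits the precision. Group means were fitted over 12 extract pairs (8 residual degrees of freedom before moderation), with Benjamini-Hochberg adjustment over all mouse probes. The fit was tested on simulated data. Same-numbered pairs deviated together (r 0.215 to 0.396 in 9 of 9 comparisons between protocols, and 0.0102 to 0.378 between a protocol and NonIschemic, lowest in number 3), so the numbers were taken to pair the protocols, and blocked counts are printed. Named probes are the 2 highest members among those above 0 in all 9 conditioning pairs and, since none was below 0 in all 9, the 2 that were below 0 in the most pairs (7). Members, lists and tests were chosen with earlier results of these data known. Lists of cell type markers were not used, for want of gene names.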

Additional observations from a re-analysis of the deposited data

Results flagged for a closer look

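For 3 values of the named probes, 1 of the 6 arrays of a group stood apart from the other 5 by Dixon's test at 95%. Of 20 groups tested, 3 were marked, and chance alone marks about 1 in 20. Mm::M200000541 had a log2 ratio of -0.00898 on the PostC number 3 array with PostC in Cy5, where the nearest other array had 0.345 and the highest 0.538. The same probe had -0.226 on the Post30 number 1 array with Post30 in Cy5, where the nearest other had 0.358 and the highest 0.493. Mm::M200000359 had -0.190 on the PostC number 3 array with PostC in Cy3, where the nearest other had -0.0340 and the highest 0.0141. The cause was not tested.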

How the results depend on the processing

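No named probe changed direction under the 24 alternatives run for it. The count of members past the adjusted threshold for any conditioning (5) moved most: it was 23 with the authors' values and with no background subtraction, 0 with an offset of 50, 12 with median centring, 10 among probes above the median intensity, 31 with the fixed replicate block, 2 with a random replicate block, 24 with the group in Cy5 only, 19 with the group in Cy3 only, 2 among the lowest 100 and 9 among the lowest 300. With 1 extract or number left out it was 1 to 13. For PreC (0) the replicate block gave 1. For PostC (0) median centring gave 1, the block 13, Cy5 only 2, Cy3 only 1 and left-out extracts 0 to 11. For Post30 (0) the authors' values, no background subtraction and the random block gave 1 each, median centring 2, the fixed block 5, Cy5 only 3 and left-out extracts 0 to 2. Between protocols the count stayed 0 under all 27 alternatives.

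Member medians with an offset of 50 were 0.0077 in PreC, 0.0067 in Post30 and 0.0096 for any conditioning. With median centring they were -0.0578 in PreC, -0.0154 in PostC, -0.0863 in Post30 and -0.0527 for any conditioning. With left-out extracts the median of Post30 against PostC was -0.0654 to -0.0034, and that of Post30 against PreC was -0.0283 to 0.0245. For probes picked on other numbers, an offset of 50 gave 0.0057 in PostC and 0.0019 in Post30, median centring gave -0.0764 in PreC, -0.0457 in PostC and -0.109 in Post30, and Cy3 only gave 0.0053 in Post30. The causes were not tested, except that an offset of 50 shrinks all ratios by construction. Adjusted p-values over the alternatives were 0.000278 to 0.0959 for Mm::M200000541, 0.00182 to 0.305 for Mm::M200008836, 0.00806 to 0.359 for Mm::M200016394 and 0.0353 to 0.918 for Mm::M200000359.

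Few spots were bright: 37.8% of group-channel and 43.2% of IR-channel values exceeded the 95th percentile of empty spots. For dim spots, small ratios were therefore not measurable.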
